A study of Mus musculus with 2 samples.

Results

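The genes described here are expressed by mature oligodendrocytes, the cells that wrap axons in myelin, and do not encode the structural proteins of the sheath. They are Anln, Plekhb1, Gsn, Tspan2, Evi2a, Apod, Car2, Qdpr, Gpr37 and Bcas1, 10 of the 30920 genes on the array. They were chosen by cell type and function with earlier results of these arrays known, so their differences between the arrays are a description and carry no test. Each had 1 probe set, which the array annotation marks as unique to its gene.

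RNA from brain tissue of male C57BL/6 mice was hybridised to a whole-transcript mouse gene array, 1 array for a control sample and 1 for a sample with cuprizone in the food. Cuprizone is a compound that binds copper and kills oligodendrocytes. The labels name cerebellum as the tissue, and they give a diet with 0.2% cuprizone for 6 weeks in a sentence that stands with both samples, so samples were grouped by their treatment labels. Nothing used here gives the age of the mice or says whether RNA was pooled, and the tag CPZ-5 in the name of the cuprizone sample is not explained. With 1 array per group no value below has an error or a test; every difference is cuprizone minus control on the log2 scale of the deposited RMA expression values and describes these arrays, not the diet in general.

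An oligodendrocyte that has stopped dividing changes its gene expression as it begins to wrap axons. Alongside the proteins and lipids of the sheath it makes proteins that arrange its cytoskeleton, sort its membranes, buffer its pH and receive signals. Many of these are also made by other cells, whereas most structural myelin proteins are largely restricted to the lineage. Cuprizone feeding is known to lower the RNA of mature oligodendrocytes in several brain regions. In a tissue extract, fewer cells of a type and less RNA per cell cannot be told apart. Whether the control and cuprizone samples held the same brain regions in the same shares was not tested, so a difference in the tissue taken cannot be told apart from these either.

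A background level was taken from genes for olfactory and vomeronasal receptors, of which brain makes little RNA. The upper end of the central 95% of 1459 such genes was 4.68 for the control and 4.71 for the cuprizone sample. All 10 genes lay above it on the control array, and all but Anln did on the cuprizone array. Genes whose brighter array reached 4.34, the median over all probe sets and both arrays, were taken as measured, which left 16559 genes with a median difference of -0.01 and a central 95% from -0.49 to 0.50. The cerebellum label was checked with 14 genes of cerebellar neurons, of which 7 lay above the background on both arrays. Gabra6, a GABA receptor subunit typical of granule cells, and Pcp2, a Purkinje cell gene, were below it on both, while 10 of 11 forebrain genes were above it on both. The tissue is therefore called the tissue labelled cerebellum.

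Of the 10 genes, 8 were lower on the cuprizone array and 2, Apod and Bcas1, were slightly higher. Among all measured genes 51.6% were lower. The median difference was -0.47, which is 1.39-fold lower, and among genes above the background on both arrays differences ranged from -1.18 for Plekhb1 to 0.16 for Apod. By the deposited values 2 genes were at least 2-fold lower, Plekhb1 and Anln, the latter through a value in the background, against 0.127% of measured genes. At least 1.5-fold lower were 3, with Qdpr added, against 1.35%. No gene was 1.5-fold or 2-fold higher, against 1.6% and 0.223% of measured genes. After background values were lifted to that upper end, only Plekhb1 was at least 2-fold lower, against 0.0604% of measured genes, and Anln, Plekhb1 and Qdpr at least 1.5-fold lower, against 0.598%. The choice of genes used this contrast, so nothing is read from these counts.

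**Figure D1:**
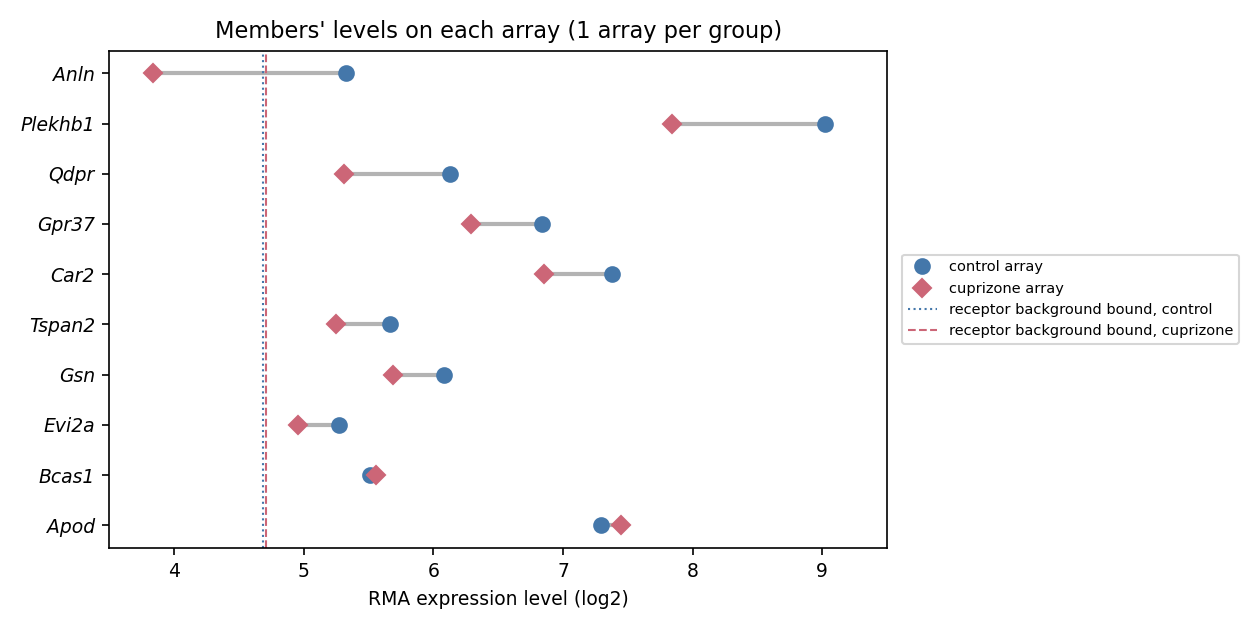
Deposited RMA expression level (log2, horizontal axis) of each of the 10 genes on the control array (circles) and the cuprizone array (diamonds), 1 array per group; dotted and dashed lines mark the background bound of each array. Anln lies below the bound on the cuprizone array at 3.84, and Apod and Bcas1 are the genes whose cuprizone value is the higher; levels of different probe sets are not comparable with each other.

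Among genes that organise the cytoskeleton, Anln was lower and lay within the background on the cuprizone array, and Gsn had a small difference. Anln encodes anillin, a scaffold that joins actin, myosin and septins at the cleavage furrow of dividing cells and, in mouse myelin, is needed for the septin filaments that line the sheath. The array annotation places it on the minus strand at chr9:22331214-22389206. Its level was 5.32 in the control and 3.84 in the cuprizone sample, where it lay 0.87 below the background bound. Because the cuprizone value is in the background, the ratio is a bound, and Anln was at least 1.53-fold lower. It also passed the filter for measured genes only through the control array. The deposited values differ by -1.49, and by -0.61 with the cuprizone value raised to the bound.

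Anln is better known as a gene of dividing cells, so 20 other genes of mitosis were set beside it. Only 1 of them, the mitotic kinase gene Aurkb, lay above the background on both arrays, with levels of 4.93 and 4.75. Of the 20 genes 5 were measured, with a median difference of 0.14 (-0.11 and -0.27 with spike-in scaling) and 0 genes differing by 1.5-fold. Summed on the linear scale, the signal of all 20 genes was 283.7 in the control and 288.6 in the cuprizone sample. These sums are mostly background, so nothing is read from them. None of the 20 genes was listed at 0, which does not mean that they were detected.

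The promoter window of Anln is printed because it holds, on both strands, the letters TTTGAA that are known as the cell cycle homology region of many mitotic genes. Windows run from 250 bases before to 50 bases after the annotated start and come from RefSeq on GRCm38.p6; 7 of the 10 genes matched a window by symbol, with 11 windows in all. Capitals mark matches to 4 motifs on either strand, which were picked with the expression values known. Besides TTTGAA these were the core of SOX factor sites, read as ACAAAG, the core of MYRF sites, read as CTGGNAC with any base at N, and the GC box, read as GGGCGG. The Anln window is chr9:22389157-22389456, minus strand.
Anln: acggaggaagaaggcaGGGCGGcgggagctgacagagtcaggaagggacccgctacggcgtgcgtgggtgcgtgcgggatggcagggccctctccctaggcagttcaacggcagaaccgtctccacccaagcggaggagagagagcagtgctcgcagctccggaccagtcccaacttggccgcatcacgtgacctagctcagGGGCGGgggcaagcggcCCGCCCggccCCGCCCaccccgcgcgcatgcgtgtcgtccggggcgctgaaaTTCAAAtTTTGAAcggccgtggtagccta
TTTGAA was in 3 of the 11 windows and in 17.9% of all 32851 windows, and the 2 matches in Anln lie within the first 50 bases after its start. The window held 30 CG dinucleotides against a median of 7 over all windows. GGGCGG occurred 4 times in it and was in 35.7% of all windows.

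Septins, the filament proteins that anillin recruits, had no shared difference. Of 15 septins and other anillin partners 11 were measured, 6 lower and 5 higher, with a median of -0.07 and 0 differing by 1.5-fold. Sept4, a septin of myelin that belongs to the list of other mature oligodendrocyte genes, went from 5.94 to 5.36, a difference of -0.58. Its partners Sept7, Sept8 and Sept2 had differences of -0.30, 0.09 and 0.20. The counts and values describe single probe sets.

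Gsn encodes gelsolin, which severs and caps actin filaments when calcium rises; it lies on the plus strand at chr2:35256359-35307902. Its level was 6.08 in the control and 5.69 in the cuprizone sample, a difference of -0.39 or 1.31-fold lower. This lay inside the central 95% of all measured genes. Of 7 relatives with gelsolin domains 4 were measured, with a median of -0.12. The differences of 3 of them were 0.39 for Vill, -0.20 for Svil and -0.38 for Scin, whose values lay within the background on both arrays.

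Gelsolin is also made by vessel and connective tissue cells, whose markers moved in opposite directions. Of 11 measured endothelial and mural genes 10 were lower, with a median of -0.32; Cldn5, a tight junction protein, differed by -0.59, Cdh5 by -0.45 and Pecam1 by -0.42. The summed signal of all 12 listed genes was 1261 in the control and 1122 in the cuprizone sample. Of 10 measured fibroblast and meninges genes 9 were higher, with a median of 0.24 (-0.01 and -0.17 with spike-in scaling), and the summed signal of all 12 listed genes went from 566.0 to 663.7. No marker of either list was listed at 0, and the part of these cells in the value of Gsn was not tested.

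Among membrane proteins, Plekhb1 had a large difference and Tspan2 and Evi2a small ones. Plekhb1 encodes a protein with a pleckstrin homology domain, also called evectin-1, which resides on membranes and was described in photoreceptors as well as in myelinating glia. It lies on the minus strand at chr7:100642892-100662414. Its level was 9.03 in the control and 7.84 in the cuprizone sample, both more than 3 log2 units above the background bound. The difference was -1.18, or 2.27-fold lower, place 5 from the lowest of the 16559 measured genes with background values raised. Of 442 measured genes whose mean level was within 0.5 of its own, the central 95% of differences ran from -0.35 to 0.29.

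Plekhb2, its closest relative, which acts on recycling endosomes in many cells, went from 7.61 to 7.13, a difference of -0.48. All 6 listed relatives and other pleckstrin homology genes were measured, 5 lower and 1 higher, with a median of -0.20. The differences of Plekhh1, also an oligodendrocyte gene, and Plekhg3 were -0.51 and -0.34. None of the 6 was 1.5-fold lower.

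The window of Plekhb1 at the farther upstream of its 2 annotated starts, chr7:100662345-100662644 on the minus strand, is printed as that of the gene at least 2-fold lower with both values above the background.
Plekhb1: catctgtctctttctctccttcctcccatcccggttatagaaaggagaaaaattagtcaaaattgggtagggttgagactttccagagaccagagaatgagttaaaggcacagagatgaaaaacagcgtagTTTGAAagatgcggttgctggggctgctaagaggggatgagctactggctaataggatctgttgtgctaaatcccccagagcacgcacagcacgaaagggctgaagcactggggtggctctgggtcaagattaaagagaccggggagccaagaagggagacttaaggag
It held 6 CG dinucleotides and 49.0% G and C, against 67.7% in the Anln window. TTTGAA occurred once, before the start, and the other 3 motifs did not occur in these letters. The window at the other start, chr7:100656916-100657215, held 3 CG dinucleotides, 1 match to ACAAAG and 2 to CTGGNAC, and no TTTGAA or GC box.

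Tspan2 encodes a tetraspanin, a protein that crosses the membrane several times and, in oligodendrocytes, associates with the proteolipid protein of myelin; it lies on the plus strand at chr3:102734529-102772310. Its level was 5.67 in the control and 5.25 in the cuprizone sample, a difference of -0.42 or 1.34-fold lower. Tetraspanins as a family had no such difference, with 12 of 23 measured members lower and a median of -0.02 (0.01 with quantile normalization and with the lowess trend removed, and -0.27 and -0.44 with spike-in scaling). The members of the family with the largest differences were Upk1b, at -0.83 and within the background on the cuprizone array, Cd53, a leukocyte tetraspanin, at 0.80, and Cd9, at 0.64. Cd9 is made by both oligodendrocytes and phagocytes.

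Markers of phagocytes, which also make tetraspanins, were higher on the cuprizone array. Of 15 measured microglia and phagocyte genes 14 were higher, 8 at least 1.5-fold, with a median of 0.65 that stayed positive under all scalings. Cd68, a lysosomal membrane protein, went from 5.79 to 7.34. Their summed signal went from 1047 to 1744, and none was listed at 0. The part of phagocytes in the values of Tspan2 or of the other members was not tested.

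Evi2a encodes a membrane protein of a single span whose role in oligodendrocytes is little known. Its annotated position, chr11:79513385-79530609 on the minus strand, lies within the span of Nf1 on the plus strand, as does that of Omg, the oligodendrocyte myelin glycoprotein. Evi2a went from 5.27 to 4.95, a difference of -0.32 or 1.25-fold lower, 0.24 above the background bound on the cuprizone array. Omg went from 6.10 to 6.17 and Nf1, the neurofibromin gene, from 8.46 to 8.45. The nested genes therefore had differences of -0.32 and 0.06 within a host gene at 0.00.

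**Figure D2:**
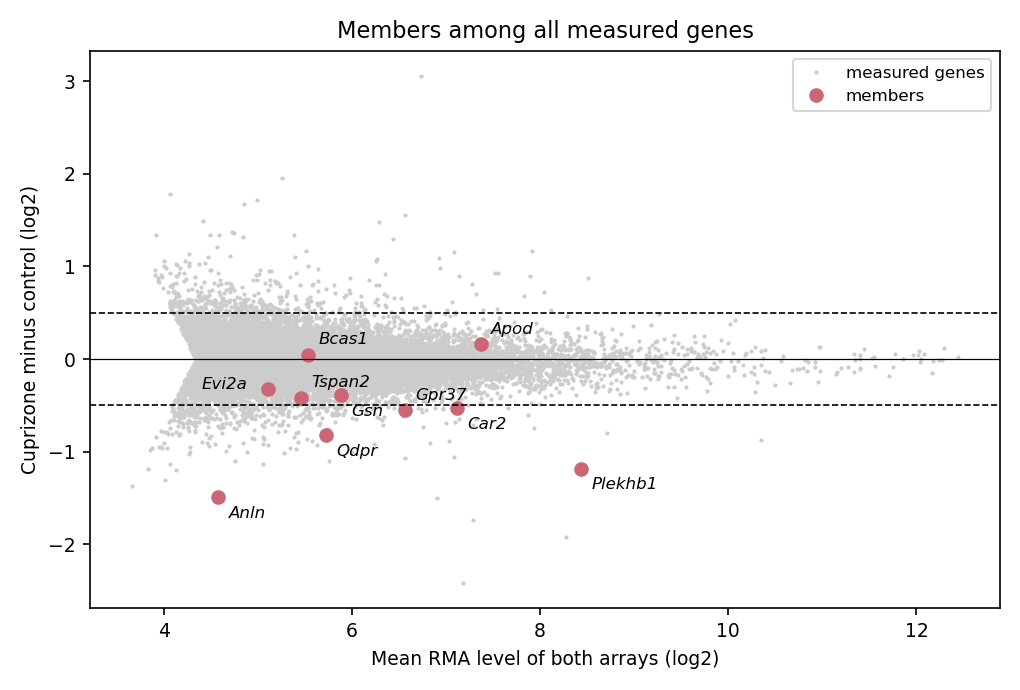
Difference between the arrays (cuprizone minus control, log2, vertical axis) against the mean log2 level of both arrays for the 16559 measured genes (grey) and the 10 genes described here (red, named); dashed lines mark the central 95% of measured genes, from -0.49 to 0.50. Plekhb1, Qdpr, Gpr37 and Car2 lie below the lower line, as does Anln, drawn at its deposited difference of -1.49 with a cuprizone value in the background.

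The enzymes Qdpr and Car2 were both below the central 95% of measured genes. Qdpr encodes dihydropteridine reductase, which regenerates tetrahydrobiopterin, the cofactor of aromatic amino acid hydroxylases and nitric oxide synthases; it lies on the minus strand at chr5:45434032-45450235. Its level was 6.13 in the control and 5.31 in the cuprizone sample. The difference was -0.82, or 1.76-fold lower, place 24 from the lowest of measured genes with background values raised.

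Other genes of tetrahydrobiopterin synthesis and use were mostly too dim to compare. Of 13 listed 7 were measured and 3 lay above the background on both arrays, and the median of the measured was -0.01 (0.01 with quantile normalization and with the lowess trend removed, -0.27 and -0.43 with spike-in scaling). Pts, an enzyme of its synthesis, went from 5.74 to 5.73. Spr, sepiapterin reductase, was at 4.79 and 4.39, the latter within the background. Agmo, which uses the cofactor, was within the background on both arrays, at 4.34 and 4.68. Th, tyrosine hydroxylase, was at 5.01 on the control array and within the background at 4.09 on the cuprizone array, so it was at least 1.23-fold lower.

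Car2 encodes carbonic anhydrase 2, a cytosolic enzyme that interconverts carbon dioxide and bicarbonate and is an established marker of oligodendrocytes; it lies on the plus strand at chr3:14886426-14900770. Its level was 7.38 in the control and 6.85 in the cuprizone sample, a difference of -0.53 or 1.44-fold lower. Of 15 other carbonic anhydrase genes 13 were measured, 7 lower and 6 higher; none was past 1.5-fold in either direction with background values raised. Car14, a membrane isoform, had a difference of -0.44, Car8, an isoform without catalytic activity, -0.42 with its cuprizone value in the background, and Car9 was within the background on both arrays.

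Car2 is also made by choroid plexus and red cells. Choroid plexus genes had a median of 0.02 over 7 measured genes (-0.01 with equal array medians, and -0.23 and -0.40 with spike-in scaling) and a summed signal of 1871 and 2164 over all 10 listed. Of the measured genes 4 were higher and 3 lower. Ttr, the transthyretin gene, at 9.86 and 10.28, was the brightest and weighs most in the sum. Erythroid genes had a median of 0.15 over 4 measured genes (-0.10 and -0.26 with spike-in scaling) and a summed signal of 1052 and 1215 over the 6 on the array. Only 2 of the 6 lay above the background on both arrays. Most of the sum came from the globin gene Hba-a2, at 9.82 and 10.03. The array annotation does not mark its probe set as unique to its gene. No marker was listed at 0. The part of choroid plexus and red cells in the value of Car2 was not tested.

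Gpr37, a receptor, had a larger difference than its relative, its proposed ligand or the endothelin receptors. Gpr37 encodes a G protein-coupled receptor that, in mice, restrains the timing of oligodendrocyte differentiation; it lies on the minus strand at chr6:25666894-25690729. Its level was 6.84 in the control and 6.29 in the cuprizone sample, a difference of -0.55 or 1.47-fold lower. Gpr37l1, the related receptor of astrocytes, went from 7.84 to 8.16, a difference of 0.32 that was -0.10 with poly-A spike-in scaling. Psap, the precursor of the saposins and a proposed ligand of both receptors, went from 9.22 to 9.18. The endothelin receptor genes Ednrb and Ednra, sequence relatives of the pair, differed by 0.16 and -0.26.

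Gpr37 is also expressed by dopamine neurons, and most measured markers of these cells were lower too. Of 7 measured dopamine neuron genes 6 were lower, with a median of -0.39, but only 3 lay above the background on both arrays. These were Slc6a3, Aldh1a1 and Nr4a2. With background values raised 2, Slc6a3 and Aldh1a1, were at least 1.5-fold lower. Nr4a2 was higher, at 6.04 in the control and 6.23 in the cuprizone sample. The summed signal of all 8 listed genes was 424.0 in the control and 308.0 in the cuprizone sample. Slc6a3, the dopamine transporter, went from 5.90 to 4.93, and Aldh1a1 from 7.44 to 6.76. No marker was listed at 0. The part of these neurons in the value of Gpr37 was not tested.

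Apod, a secreted protein, and Bcas1 were the 2 genes without a lower value. Apod encodes apolipoprotein D, a lipocalin that carries small lipids such as arachidonic acid and is made by oligodendrocytes, astrocytes and fibroblasts; it lies on the minus strand at chr16:31296192-31314808. Its level was 7.29 in the control and 7.45 in the cuprizone sample, both over 2 log2 units above the background bound. The difference of 0.16 lay inside the central 95% of measured genes and was -0.10 when arrays were scaled on hybridization spike-ins and -0.26 on poly-A spike-ins.

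Apod's window, chr16:31314759-31315058 on the minus strand, is printed as that of the gene at the other end of the range.
Apod: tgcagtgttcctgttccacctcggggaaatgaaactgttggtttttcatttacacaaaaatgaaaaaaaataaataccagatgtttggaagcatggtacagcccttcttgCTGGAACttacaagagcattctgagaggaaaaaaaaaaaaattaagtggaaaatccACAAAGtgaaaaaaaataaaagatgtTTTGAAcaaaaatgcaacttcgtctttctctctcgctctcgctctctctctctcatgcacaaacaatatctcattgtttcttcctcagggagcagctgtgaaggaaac
It held 4 CG dinucleotides and 37.3% G and C. The GC box did not occur in these letters, and the other 3 motifs each occurred once, all before the start. ACAAAG was in 18.7% of all windows and CTGGNAC in 19.3%.

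Of 10 other lipocalins 4 were measured, and only Ptgds lay above the background on both arrays, with a difference of -0.02. Lcn2, which reactive astrocytes make, was within the background on both arrays, as were Lcn8 and Lcn12. Astrocyte genes, listed because these cells also make Apod, had a median of -0.03 over 12 measured genes, 6 lower and 6 higher, and a summed signal of 2847 and 2926 with none listed at 0. Gfap, the intermediate filament of reactive astrocytes, went from 7.33 to 8.50. Slc7a10 and Fgfr3, also among the 3 largest differences of the list, were lower, at -0.55 and -0.43. The part of astrocytes or of the fibroblasts described with Gsn in the value of Apod was not tested.

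Bcas1 encodes a protein of mature and, in particular, of newly myelinating oligodendrocytes; it lies on the minus strand at chr2:170346991-170427845. Its level was 5.51 in the control and 5.56 in the cuprizone sample, 0.83 and 0.85 above the background bound. The difference of 0.05 turned to -0.21 and -0.37 with spike-in scaling. A list of oligodendrocyte precursor genes, which also holds genes of newly formed cells such as Enpp6, had a median of 0.07 over 19 measured genes (-0.19 and -0.35 with spike-in scaling). Of these 14 were higher, 5 lower and 0 differed by 1.5-fold. Enpp6, another gene of newly formed oligodendrocytes, was within the background on the control array at 4.42 and just above it on the cuprizone array at 4.75.

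Set beside other oligodendrocyte genes, the 10 lay between structural myelin genes and the wider list of mature genes. Structural myelin genes had a median of -0.89 over 15 measured genes, 11 lower by 1.5-fold or more and, with background values raised, 5 of them by 2-fold or more. Mobp, which compacts myelin, differed by -1.93, Mal, a sorting protein of myelin membrane, by -1.50 and Opalin, a membrane protein of mature cells, by at least 0.60 in the lower direction, while Mbp, Mag and Mog differed by -1.05, -1.07 and -0.91. The list of myelin galactolipid enzymes, which also holds other lipid enzymes and Aspa, had a median of -0.29 over 11 genes with 3 at least 1.5-fold lower. These were Fa2h, the fatty acid hydroxylase, at -1.01, Ugt8a, the galactosyltransferase, at -0.90, and Aspa at -0.72. Aspa encodes aspartoacylase, which is not a galactolipid enzyme. The list of other mature oligodendrocyte genes had a median of -0.25 over 38 genes with 5 at least 1.5-fold lower when background values were raised. With 1 array per group the difference between the lists was not tested.

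Among all 74 measured genes of these lists and of the set, 59 were lower and 22 at least 1.5-fold lower with background values raised. Of all measured genes 0.598% were at least 1.5-fold lower when so treated, and 51.6% were lower as deposited. The lists and the set were chosen with earlier results of these arrays known, so nothing is read from the counts. Counted from the lowest of the 74 differences with background values raised, Plekhb1 held place 3 and Qdpr 13. Gpr37 and Car2 held places 24 and 25, Tspan2, Gsn and Evi2a 30, 33 and 37, and Bcas1 and Apod 69 and 72. Anln has no place beyond that of its bound, 21. Summed on the linear scale, the signal of the 10 genes was 1272 in the control and 820.0 in the cuprizone sample. Bright probe sets weigh most in such a sum, and Plekhb1 alone went from 521.1 to 229.6.

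**Figure D3:**
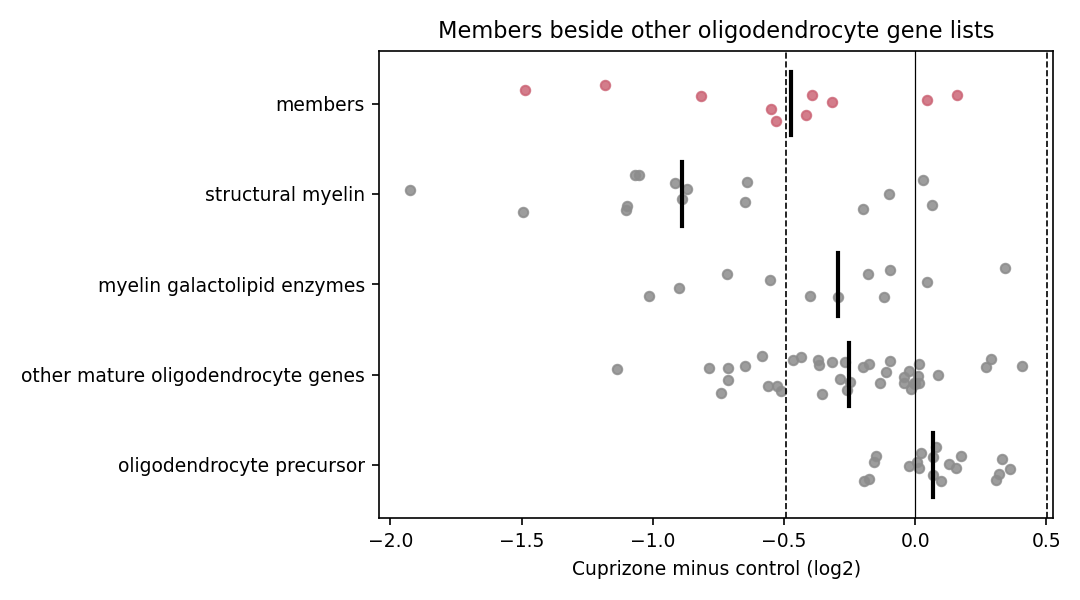
Differences between the arrays (cuprizone minus control, log2, horizontal axis) of measured genes in 5 lists, 1 point per gene, drawn at deposited values with the median of each list as a bar and the central 95% of all measured genes as dashed lines; vertical jitter has no meaning. The 10 genes (red, labelled members) have a median of -0.47, between -0.89 for structural myelin genes and -0.25 for other mature oligodendrocyte genes. The precursor list, which also holds genes of newly formed cells, centres at 0.07 (-0.19 and -0.35 with spike-in scaling).

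Annotated features varied within the set. The array annotation assigns the myelin sheath as a cellular component to 3 of the 10 genes, Gsn, Tspan2 and Car2, and to 0.608% of all genes on the array. The genes were chosen as oligodendrocyte genes, so nothing is read from that share. Differences of these 3 were -0.39, -0.42 and -0.53 as deposited, none past 1.5-fold. With hybridization spike-in scaling they were -0.65, -0.67 and -0.79, all past it. That scaling shifted all measured genes, of which at least 4.98%, those at or below Gsn, then passed 1.5-fold. The annotated gene spans ran from 14345 bases for Car2 to 80855 for Bcas1. Probe numbers ran from 17 for Tspan2 to 41 for Anln.

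To set the genes beside others of like level, each was placed among the measured genes within 0.5 log2 units of its own mean level, 442 to 6352 genes, whose lower 2.5% ended between -0.56 and -0.35. Anln, at its bound of -0.61 as well as at the deposited value, Plekhb1, Qdpr, Gpr37 and Car2 lay below that limit and the other 5 genes did not. Genes are not replicates, and this spread holds true differences as well as measurement error.

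**Figure D4:**
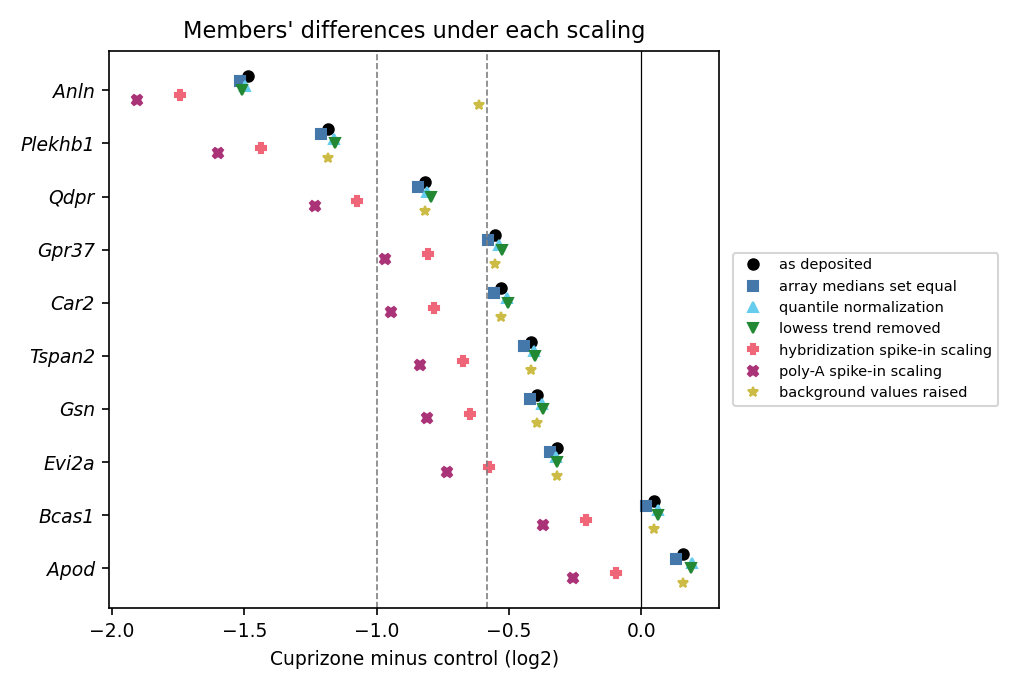
Difference of each of the 10 genes (cuprizone minus control, log2, horizontal axis) as deposited and under 6 other treatments of the values, 1 symbol for each; dashed lines mark 1.5-fold and 2-fold lower. Spike-in scaling moves all genes down by 0.26 or 0.42, which turns Apod and Bcas1 negative, and raising the background moves Anln to -0.61 and leaves the other 9 in place.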

How the data were processed

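Expression was deposited by the authors as log2 values for probe sets. The submitters' processing notes name RMA and Affymetrix Power Tools without a version; the sources used here give no genome build or annotation release. RMA equalises signal distributions, so a change in total RNA is removed. The 41345 probe sets were the same in both deposited tables, with values within 5e-05. For the 657 genes with several probe sets, the brightest was used. Arrays give no read depth; their number, 1 per group, limits precision.

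Differences were computed with Python 3.11.15 and pandas 2.3.3 and counted at 2-fold and 1.5-fold; no test was run. Counting was tested on simulated data. For ratios written "at least", background values were raised to the bound. Members and gene lists were chosen with earlier results of these data known. Named are all members, genes among the 3 largest absolute differences of a list, and Mbp, Mag, Mog, Gpr37l1, Psap, Omg, Nf1, Plekhb2, Sept4 and Sept8. Aurkb, Pts, Ptgds, Gabra6, Pcp2, Nr4a2 and the genes of the closing observations were added knowing their values. Alternatives were equal array medians, quantile normalization, lowess (span 0.2), scaling on 13 hybridization or 21 poly-A spike-in probe sets above background, the other table, other probe set rules, raised background, level filters and leaving out members.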

Additional observations from a re-analysis of the deposited data

How the results depend on the processing

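Each member's difference was recomputed under 9 alternatives, and 69 of the 90 values moved by at most 0.1 on the log2 scale. The other 21 came from the spike-in scalings, for every member, and from raising the background, for Anln (-0.61). Equal array medians, quantile normalization and lowess left 8 members lower and 2 higher. Scaling on hybridization spike-ins shifted the median of all measured genes by -0.26 and gave a member median of -0.73, with 7 members at least 1.5-fold lower, and scaling on poly-A spike-ins shifted it by -0.42 and gave -0.89, with 8. All 10 members were then lower, as the construction of a common shift makes plain. The same shift moved all measured genes. At least 4.98% of them, those at or below Gsn, passed 1.5-fold with hybridization scaling. With poly-A scaling at least 8.47% passed, those at or below Evi2a. Nothing is read from the members' counts. The number at least 2-fold lower went from 2 to 1 with the background raised and to 1 without Anln or without Plekhb1, and to 3 with either spike-in scaling, where Qdpr reached -1.07 and -1.23. At or below Qdpr lay 0.35% of measured genes, so at least that share passed 2-fold with either spike-in scaling. Leaving out single members moved the median between -0.53 and -0.42. The share of all genes at least 2-fold lower was 0.194% with no filter on low values. The probe set rules changed nothing, since each member has 1 probe set. No paired analysis was possible because each group has 1 array, and for the same reason no replicate could be left out.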

Other observations

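Bcas1 was not alone among mature oligodendrocyte genes in having nearly equal values on both arrays. Of the 74 measured genes of the mature lists and the set, 17 differed by at most 0.1 in either direction. Of the same 74, 22 were at least 1.5-fold lower with background values raised, against 0.598% of all measured genes. The share of all measured genes within 0.1 was not counted, so nothing is read from the number 17. Among the 17, Trf, the iron carrier transferrin, was at 8.04 in the control and 8.06 in the cuprizone sample. Enpp2, the lysophospholipase autotaxin, was at 9.40 and 9.36. Sirt2, a tubulin deacetylase, was at 8.57 and 8.52 and Gjc3, a connexin, at 7.47 and 7.44. The lineage transcription factor gene Myrf was at 5.77 and 5.78. Sox10, just outside that limit, differed by -0.11. Enpp2 is also a marker of choroid plexus. These genes were picked after their values were seen, and with spike-in scaling all of them were lower on the cuprizone array by more than 0.1.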
